A study of Mus musculus with 12 samples.

Results

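The 10 genes Mdm2, Ccng1, Phlda3, Bax, Zmat3, Tnfrsf10b, Eda2r, Trp53inp1, Sesn2 and Gdf15 are targets of the transcription factor p53, picked by symbol from the 41128 genes of the deposited count table. All 10 were found there, and all 10 passed the filter on low counts in every comparison. They were read in 12 mouse RNA-seq libraries of 5 groups from a liver study of YAP and TAZ, the effectors of Hippo signalling. Of these, 6 libraries hold hepatocytes purified on a Percoll gradient, 3 from untreated mice and 3 from peritumoral tissue, all with the genotype Lats1tm1.1Jfm/RjoJ; Lats2tm1.1Jfm/RjoJ and all titled wild type. The sources used here do not say whether Cre was present. Tumours in the peritumoral mice had grown for 8 weeks after hydrodynamic injection, at the age of 8 weeks, of the SB11 transposase (1 µg), myc-NICD, an active part of Notch (20 µg), and myr-ha-Akt, a membrane-bound form of the kinase Akt (4 µg). The sources used here do not name the promoters driving these constructs. Every label gives an age of 8 weeks, so the peritumoral mice may be older than their label says. The other 6 libraries come from CD-1 IGS mice of 8 weeks from Charles River, 2 controls and 2 each taken 24 h and 48 h after 1 intraperitoneal injection of thioacetamide (TAA). The sources used here do not say what the controls received. Each sample label calls the TAA and control libraries hepatocytes, while the series design calls them livers, and they are called livers here.

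p53 is kept scarce in unstressed cells by Mdm2, a ubiquitin ligase that sends it to the proteasome. DNA damage and other stresses free p53, which binds paired decamers near its targets and raises transcripts for cell cycle arrest, DNA repair, apoptosis and metabolic restraint, Mdm2 itself among them. TAA is a hepatotoxin that the cytochrome Cyp2e1 of hepatocytes around the central vein turns into reactive products.

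Total counts ran from 16228747 to 18522324 in the hepatocyte libraries and from 9640845 to 13692235 in the liver libraries. Peritumoral replicate 2 stood apart. Its 8 biliary markers summed to 10280 RPM (counts scaled to the library total alone) against 1113 and 774.8 RPM in replicates 1 and 3, and its 10 hepatocyte markers to 81300 RPM against 115900 and 145600 RPM. It was also the highest library of its group for 9 of the 10 genes, all but Gdf15, for which it was the lowest, while 41.1% of all genes had their highest peritumoral level there. The 10 hepatocyte markers were detected in every library. No label says that the libraries of a group came from separate mice, and every p-value therefore reflects spread among these libraries alone, which may be technical. In bulk RNA, fewer cells of a type and less RNA per cell cannot be told apart.

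Reference promoters are shown for the genes with a p53 element there, since p53 acts through such elements. RefSeq promoters (GRCm38.p6, 250 bases before to 50 after a start) were found for 7 of the 10 genes, Trp53inp1, Zmat3 and Tnfrsf10b not being among them. A match to the p53 response element was 2 decamers at most 13 bases apart, on either strand, each with C in the fourth and G in the seventh place, and with at most 2 mismatches in all to the consensus of 3 purines, C, A or T, A or T, G and 3 pyrimidines. These limits were set after the members' sequences had been seen. Of 32851 promoters, 4.09% held a match, 0.627% one with at most 1 mismatch and 0.0731% one with none. Ccng1 (1 mismatch, 195 to 176 bases before the start) and Bax (2 mismatches, 201 to 181 bases before it) held one. The cell cycle inhibitor gene Cdkn1a, a classic p53 target, held one with 0 mismatches in the window shown here. The window of another Cdkn1a start, chr17:29093519-29093818, held no match, its best pair having 5 mismatches. No match lay in the windows of Mdm2, Phlda3, Sesn2, Gdf15 or Eda2r, which says only that these letters are not there. Capitals mark the decamers, 5′ to 3′ on the strand of the gene, in chr11:40755422-40755521 (minus strand), chr7:45467039-45467139 (minus strand) and chr17:29090866-29090977 (plus strand). Only the pair with the fewest mismatches is marked. In Cdkn1a the second marked decamer also pairs with the bases right after it, tgacatgttc, which depart from the consensus only in their first base. Which pair p53 binds was not tested.
Ccng1: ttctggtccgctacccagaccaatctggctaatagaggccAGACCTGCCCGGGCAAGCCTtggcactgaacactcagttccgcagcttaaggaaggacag
Bax: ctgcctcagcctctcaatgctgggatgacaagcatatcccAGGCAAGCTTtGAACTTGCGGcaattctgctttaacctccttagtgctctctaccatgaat
Cdkn1a: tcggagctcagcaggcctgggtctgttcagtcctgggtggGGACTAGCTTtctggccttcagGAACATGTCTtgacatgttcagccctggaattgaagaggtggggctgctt

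In the GENCODE M21 annotation on GRCm38, Mdm2 (ENSMUSG00000020184) lies at chr10:117688875-117710758, Ccng1 (ENSMUSG00000020326) at chr11:40748552-40755311 and Phlda3 (ENSMUSG00000041801) at chr1:135766119-135769136. Bax (ENSMUSG00000003873) lies at chr7:45461697-45466898, Zmat3 (ENSMUSG00000027663) at chr3:32334792-32366014, Tnfrsf10b (ENSMUSG00000022074) at chr14:69767472-69784411 and Eda2r (ENSMUSG00000034457) at chrX:97333840-97377216. Trp53inp1 (ENSMUSG00000028211) lies at chr4:11156431-11174379, Sesn2 (ENSMUSG00000028893) at chr4:132492032-132510501 and Gdf15 (ENSMUSG00000038508) at chr8:70629393-70632456. All are protein-coding. Bax shares 12.2% of its exon length with Gm45808 on the same strand, so its reads are uncertain to that extent, and no other of the 10 shares exon bases with another gene.

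After TAA, 7 of the 10 genes were higher than in control liver at 24 h and the same 7 at 48 h: Mdm2, Ccng1, Phlda3, Bax, Zmat3, Tnfrsf10b and Eda2r. Over the 13497 genes tested, 41.8% passed at 24 h, 21.3% higher and 20.5% lower, and 48.9% at 48 h, 25.0% higher and 23.9% lower. Both times share the 2 control libraries. The median log2 fold change of the 10 genes was 1.28 at 24 h and 1.22 at 48 h, against 0.02 and -0.03 over all genes. Trp53inp1, Sesn2 and Gdf15 did not pass at either time. Between peritumoral and untreated hepatocytes Gdf15 and Phlda3 passed, both higher, 2 of 10, and 0 were lower by edgeR or DESeq2, nor was any lower at an unadjusted p under 0.05, where Eda2r joined those 2 on the higher side. Of 13442 genes, 29.2% passed there, 19.0% higher and 10.2% lower. The lower calls over all genes rested on few libraries: 1370 in number, they dropped to 66 and 130 when untreated replicates 1 and 2 were left out, and to 433 and 626 for peritumoral replicates 3 and 2, while the higher calls went from 2560 to between 1293 and 2657. Each change below is a log2 fold change ± SE, and each adjusted p comes from the quasi-likelihood test of edgeR, with Benjamini-Hochberg correction over every gene tested. Levels are CPM, that is, counts scaled to a common library size with TMM factors.

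**Figure D1:**
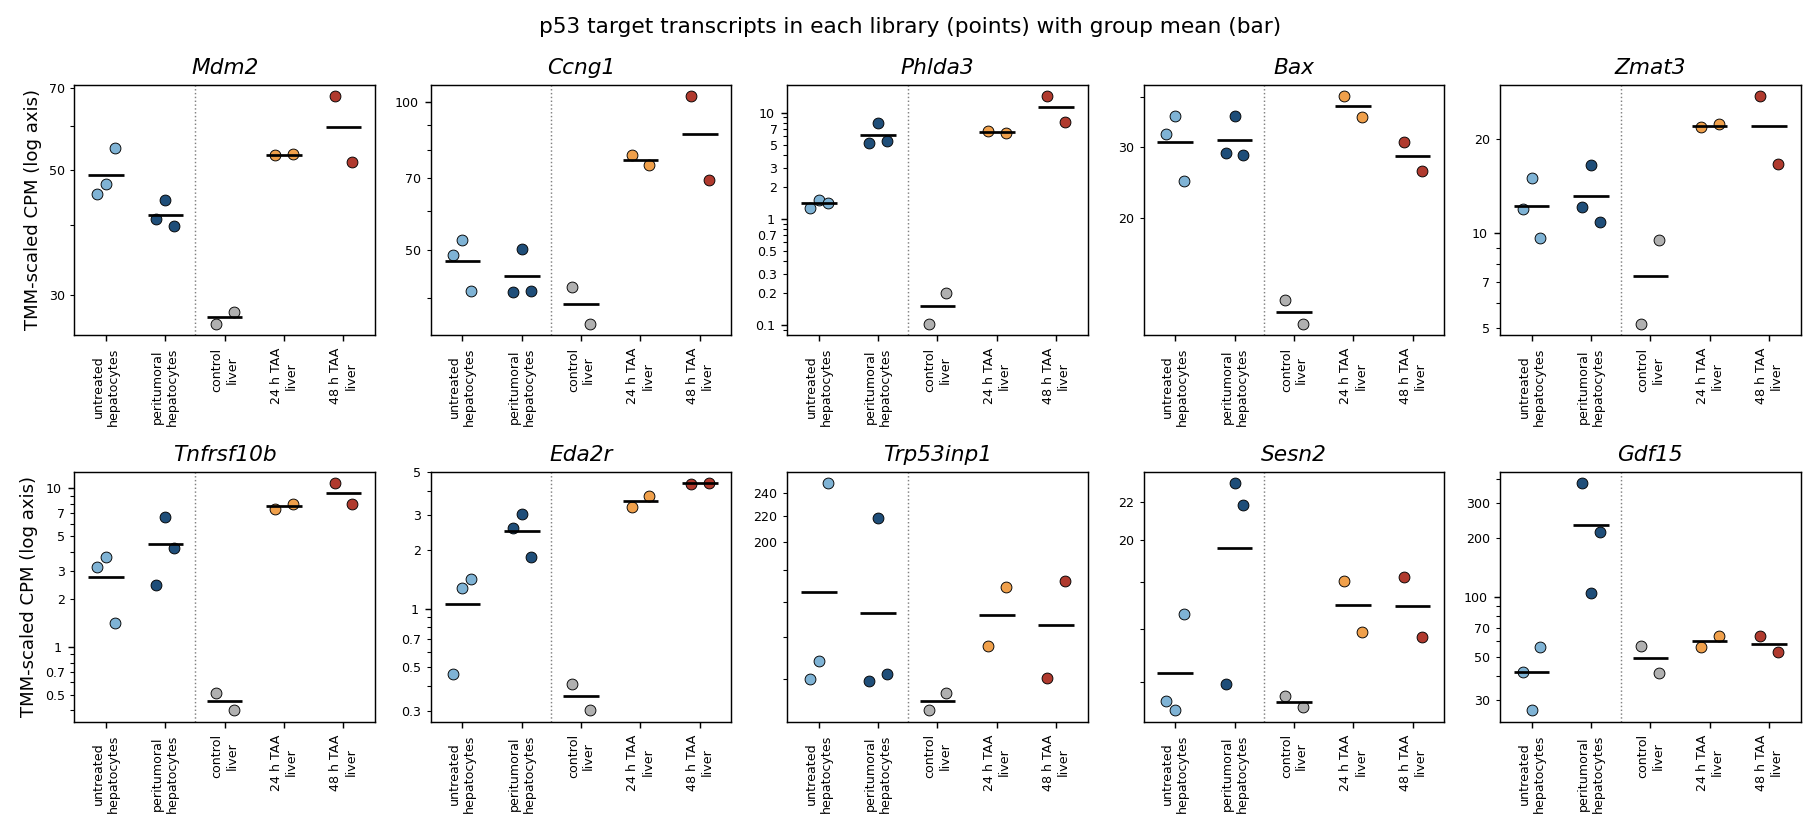
TMM-scaled CPM (log axis, a separate range for each gene) of the 10 p53 target genes in each of the 12 libraries (points) with the group mean (bar); the dotted line separates the hepatocyte from the liver libraries, which were scaled separately. The 2 control livers lie below all 4 TAA livers for 9 of the 10 genes, all but Gdf15, whose 3 peritumoral points from 105 to 381 CPM lie above every other point. Of 13472 genes, 38.3% lay wholly above control at 24 h and 37.5% at 48 h. No share for both times together is given.

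Mdm2, the ligase that limits p53, stood at 26.7 and 28.1 CPM in the 2 control livers, 53.1 and 53.4 CPM at 24 h, and 67.7 and 51.8 CPM at 48 h. All 4 TAA livers lay above both controls. It rose by 0.96 ± 0.15 at 24 h (adjusted p = 0.00392) and by 1.13 ± 0.15 at 48 h (adjusted p = 0.00155), and its call was kept with each of the 4 libraries of a comparison left out in turn. In hepatocytes it stood at 45.4, 47.4 and 54.7 CPM in untreated and at 40.9, 44.2 and 39.8 CPM in peritumoral libraries. The 3 peritumoral values lay below the 3 untreated ones, but the log2 fold change of -0.24 ± 0.14 did not pass (adjusted p = 0.256). Of 13416 genes, 24.7% had no overlap in that direction and 25.0% in the other, the latter including Gdf15, Phlda3 and Eda2r.

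Ccng1 encodes cyclin G1, which recruits a phosphatase to Mdm2. It stood at 42.2 and 35.5 CPM in controls, 78.3 and 74.6 CPM at 24 h, and 102.8 and 69.5 CPM at 48 h, so the TAA livers lay above the controls and the 48 h libraries on both sides of the 24 h ones. It rose by 0.98 ± 0.20 at 24 h (adjusted p = 0.00982) and by 1.15 ± 0.20 at 48 h (adjusted p = 0.00407). The 24 h call was lost without 24 h replicate 1 (adjusted p = 0.0578) or control replicate 2 (adjusted p = 0.05135). Its hepatocyte groups overlapped, at 48.9, 52.5 and 41.3 CPM in untreated and 41.2, 50.3 and 41.3 CPM in peritumoral libraries (log2 fold change -0.10 ± 0.16, adjusted p = 0.682).

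Phlda3, a pleckstrin homology protein that competes with Akt for membrane lipids, was the only one of the 10 to be higher in all 3 comparisons with an untreated or control group. It was nearly absent from control liver, with 1 and 2 counts, or 0.103 and 0.200 CPM. It reached 6.68 and 6.46 CPM at 24 h and 14.3 and 8.13 CPM at 48 h. Because the controls held 3 counts in all, the size of the change is uncertain: the ratio of summed levels was 43.1 at 24 h (exact 95% interval 14.5 to 211, for counting error only) and 71.3 at 48 h (24.2 to 348). The adjusted p was 0.000613 at 24 h and 0.000270 at 48 h. In hepatocytes it stood at 1.27, 1.51 and 1.42 CPM in untreated and at 5.14, 7.96 and 5.43 CPM in peritumoral libraries, with no overlap. It was higher by 2.14 ± 0.29 (adjusted p = 0.00494), and the call was kept with each of the 6 libraries left out, among them peritumoral replicate 2 (log2 fold change 1.95, adjusted p = 0.00442).

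Among the apoptosis genes, Bax encodes the protein that opens pores in the outer mitochondrial membrane. It stood at 12.5 and 10.9 CPM in controls, 40.2 and 35.7 CPM at 24 h, and 30.9 and 26.3 CPM at 48 h. It rose by 1.70 ± 0.16 at 24 h (adjusted p = 0.000717) and by 1.29 ± 0.16 at 48 h (adjusted p = 0.00105). Both 48 h libraries lay below both 24 h libraries, a difference that did not pass (-0.41 ± 0.15, adjusted p = 0.143). In hepatocytes the groups overlapped, at 32.4, 35.9 and 24.8 CPM against 29.1, 36.0 and 28.8 CPM in the peritumoral libraries (log2 fold change 0.02 ± 0.19).

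Tnfrsf10b, the mouse receptor for the death ligand TRAIL, and Eda2r, a receptor for the A2 form of ectodysplasin, were both close to the limit of detection in control liver. Tnfrsf10b stood at 0.515 and 0.401 CPM (5 and 4 counts) in controls, 7.41 and 7.97 CPM at 24 h, and 10.8 and 7.93 CPM at 48 h. Its ratio to control was 16.8 (exact 95% interval 8.71 to 37.3) at 24 h and 20.1 (10.4 to 44.6) at 48 h, with adjusted p = 0.000584 and 0.000281. Eda2r stood at 0.412 and 0.301 CPM (4 and 3 counts) in controls, 3.30 and 3.78 CPM at 24 h, and 4.37 and 4.40 CPM at 48 h. Its ratio was 9.98 (4.67 to 25.5) at 24 h and 12.3 (5.80 to 31.3) at 48 h, with adjusted p = 0.000998 and 0.000481. For both genes every TAA liver lay above both controls. In hepatocytes Eda2r stood at 0.462, 1.28 and 1.42 CPM in untreated and 2.60, 3.05 and 1.85 CPM in peritumoral libraries. These groups did not overlap, but the log2 fold change of 1.27 ± 0.47 did not pass (adjusted p = 0.0870). Tnfrsf10b overlapped, at 3.17, 3.72 and 1.42 CPM against 2.48, 6.64 and 4.21 CPM (log2 fold change 0.68 ± 0.49, adjusted p = 0.330).

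Zmat3, a zinc finger protein that binds RNA, stood at 5.15 and 9.52 CPM in controls, 21.8 and 22.3 CPM at 24 h, and 27.4 and 16.7 CPM at 48 h. It rose by 1.59 ± 0.34 at 24 h (adjusted p = 0.0116) and by 1.58 ± 0.34 at 48 h (adjusted p = 0.00908), and the 24 h call was lost without 24 h replicate 1 (adjusted p = 0.0566). The hepatocyte groups overlapped, at 11.9, 15.1 and 9.67 CPM in untreated and 12.2, 16.5 and 10.9 CPM in peritumoral libraries.

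Trp53inp1, a nuclear protein that promotes p53 phosphorylation and autophagy, had the highest CPM of the 10 genes in every group but the peritumoral one. It stood at 106.7 and 113.9 CPM in controls, 135.6 and 169.1 CPM at 24 h, and 120.3 and 173.1 CPM at 48 h. The TAA livers lay above the controls, but neither 0.47 ± 0.20 at 24 h (adjusted p = 0.0996) nor 0.41 ± 0.20 at 48 h (adjusted p = 0.127) passed. Without 48 h replicate 1 the 48 h change was 0.65 and passed (adjusted p = 0.0437). In hepatocytes 1 library of each group was high, at 119.8, 128.2 and 248.9 CPM in untreated and 119.1, 218.8 and 122.0 CPM in peritumoral libraries.

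Sesn2 encodes sestrin 2, a leucine sensor that restrains mTORC1. It stood at 13.5 and 13.1 CPM in controls, 18.1 and 15.9 CPM at 24 h, and 18.2 and 15.7 CPM at 48 h. The TAA livers lay above the controls, but 0.35 ± 0.16 at each time did not pass (adjusted p = 0.121 and 0.117). In hepatocytes the groups overlapped, at 13.3, 13.02 and 16.6 CPM in untreated and 13.9, 23.1 and 21.9 CPM in peritumoral libraries (log2 fold change 0.46 ± 0.24, adjusted p = 0.197). With Trp53inp1 and Sesn2 counted, 9 of the 10 genes had no overlap between TAA and control livers at each time, all 9 of them higher after TAA. Of 13472 genes, 38.3% lay wholly higher and 35.8% wholly lower at 24 h, and 37.5% and 39.0% at 48 h.

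Gdf15, a secreted hormone of the TGF-beta superfamily that cells release under stress, differed from the other 9. In hepatocytes it stood at 42.0, 26.7 and 56.0 CPM in untreated and 380.9, 105.1 and 214.6 CPM in peritumoral libraries, and every peritumoral value lay above every other value in the 12 libraries. It was higher by 2.49 ± 0.50 (adjusted p = 0.0143). The call was lost without untreated replicate 1 (adjusted p = 0.05955) or replicate 2 (adjusted p = 0.0607), and without peritumoral replicate 2, its lowest peritumoral library, the change was 2.90 (adjusted p = 0.00382). In livers it stood at 56.8 and 41.5 CPM in controls, 56.2 and 63.6 CPM at 24 h, and 63.3 and 53.03 CPM at 48 h, so the groups overlapped. The log2 fold change was 0.29 ± 0.18 at 24 h (adjusted p = 0.246) and 0.25 ± 0.18 at 48 h (adjusted p = 0.306). Gfral, its receptor in the hindbrain, had 0 counts in every library.

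**Figure D2:**
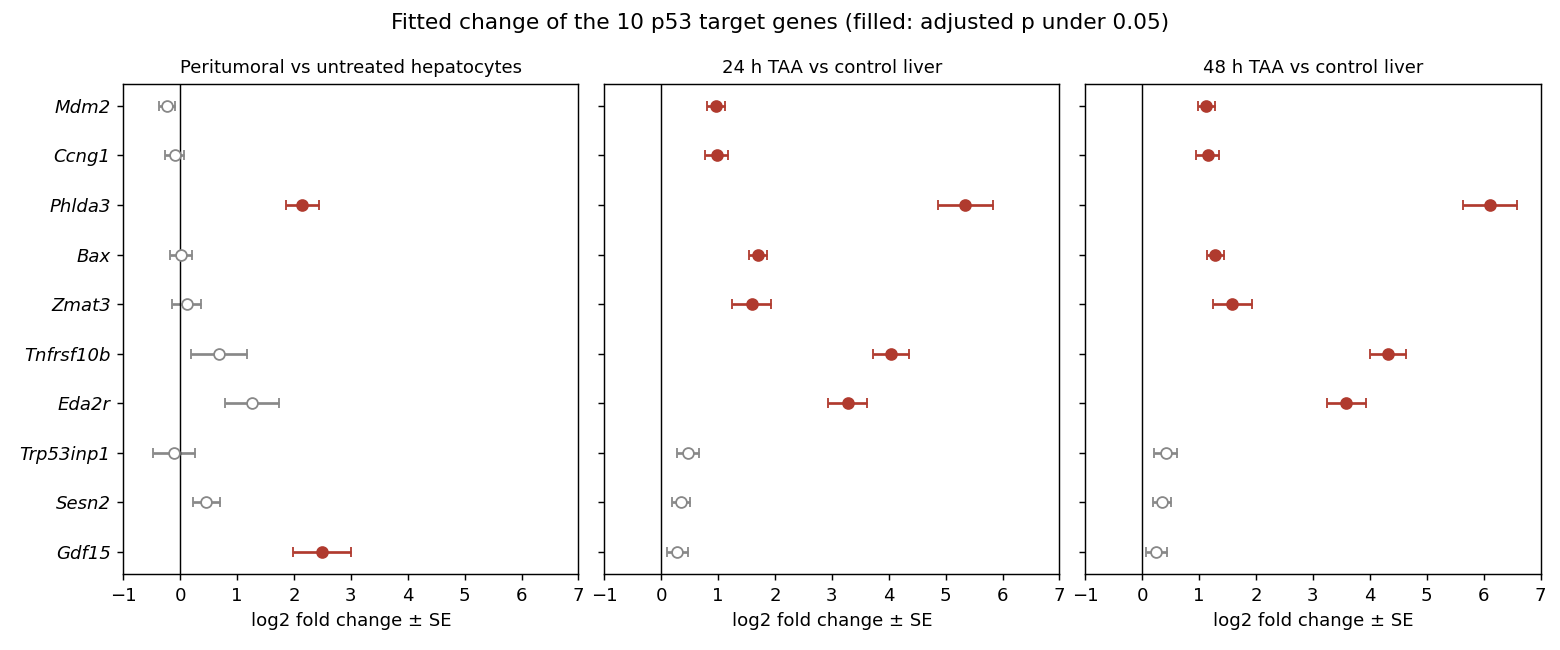
Fitted log2 fold change ± SE (x axis) of the 10 p53 target genes in 3 comparisons; filled points have an adjusted p under 0.05. In both TAA panels 7 genes are filled, from 0.96 for Mdm2 at 24 h to 6.11 for Phlda3 at 48 h, and in the peritumoral panel Gdf15 at 2.49 and Phlda3 at 2.14 are.

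Between 48 h and 24 h, 0 of the 10 genes passed in edgeR's quasi-likelihood test, where 7.33% of 13497 genes did, 4.96% higher and 2.36% lower. DESeq2 also called 0 of the 10. At an unadjusted p under 0.05 there were 2, Bax and Phlda3, the latter at 0.76 ± 0.30 (adjusted p = 0.151). The median of the 10 was 0.08. Replicate 1 of the 48 h group had the higher level of 8 of the 10 genes, where 50.3% of all genes were higher in that library.

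Whether the peritumoral change differed from the TAA change was tested in 1 fit of all 12 libraries, as the difference of the 2 log2 fold changes. The mice differ in genotype and, by the series design, in what was sampled, and these cannot be told apart from the difference in treatment. At an adjusted p under 0.05 the 7 genes that rose after TAA changed less in the peritumoral comparison, against 24 h and 48 h alike. Gdf15 changed more. The calls of Eda2r and Gdf15, and that of Zmat3 against 48 h, depended on the settings. Of 14615 genes, 21.1% passed against 24 h, 12.1% lower and 9.03% higher, and 15.3% against 48 h, 8.57% lower and 6.71% higher. The 2 differences share the hepatocyte and control libraries. Mdm2 differed by -1.30 ± 0.19 against 24 h (adjusted p = 0.00580) and by -1.43 ± 0.19 against 48 h (adjusted p = 0.00475), and kept both calls with any of the 10 libraries of a comparison left out. Phlda3 differed by -3.33 ± 0.59 and -4.06 ± 0.58 (adjusted p = 0.00751 and 0.00475), and lost the first call without control replicate 1 (adjusted p = 0.0614). Bax differed by -1.80 ± 0.28 and -1.35 ± 0.28 (adjusted p = 0.00619 and 0.0177), and lost the second call without 48 h replicate 1 or control replicate 1 or 2 (adjusted p = 0.05555 to 0.06754).

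The other differences depended more on single libraries. Tnfrsf10b differed by -3.50 ± 0.75 and -3.74 ± 0.75 (adjusted p = 0.0139 and 0.0164) and Ccng1 by -1.19 ± 0.28 and -1.33 ± 0.28 (adjusted p = 0.0178 and 0.0180). Both lost their calls without control replicate 1 or 2, 24 h replicate 1 or 48 h replicate 1, and Ccng1 also without 24 h replicate 2 (adjusted p = 0.0509 to 0.0757). Zmat3 differed by -1.60 ± 0.46 and -1.56 ± 0.46 and kept its call in 3 and 2 of the 10 leave-outs. Against 48 h the call of Zmat3 was also lost under some settings that kept all libraries. Eda2r differed by -2.12 ± 0.67 and -2.39 ± 0.67 and kept its call in 2 and 3. Its difference from 24 h did not pass under any of the 6 other settings tried with all libraries (adjusted p = 0.0511 to 0.0869). Gdf15 differed by 2.12 ± 0.64 and 2.20 ± 0.64 (adjusted p = 0.0423 and 0.0458) and kept its call in 2 and 2, namely without peritumoral replicate 2 or untreated replicate 3, and lost both with no filter on low counts (0.0531 and 0.0583). Trp53inp1 (-0.67 ± 0.47 and -0.58 ± 0.47) and Sesn2 (0.01 ± 0.30 and 0.05 ± 0.30) did not pass. Genes called lower numbered 2 to 4 of the 10 against 24 h without any 1 of 24 h replicates 1 and 2 and control replicates 1 and 2, and 2 against 48 h without 48 h replicate 1 or control replicate 1 or 2.

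**Figure D3:**
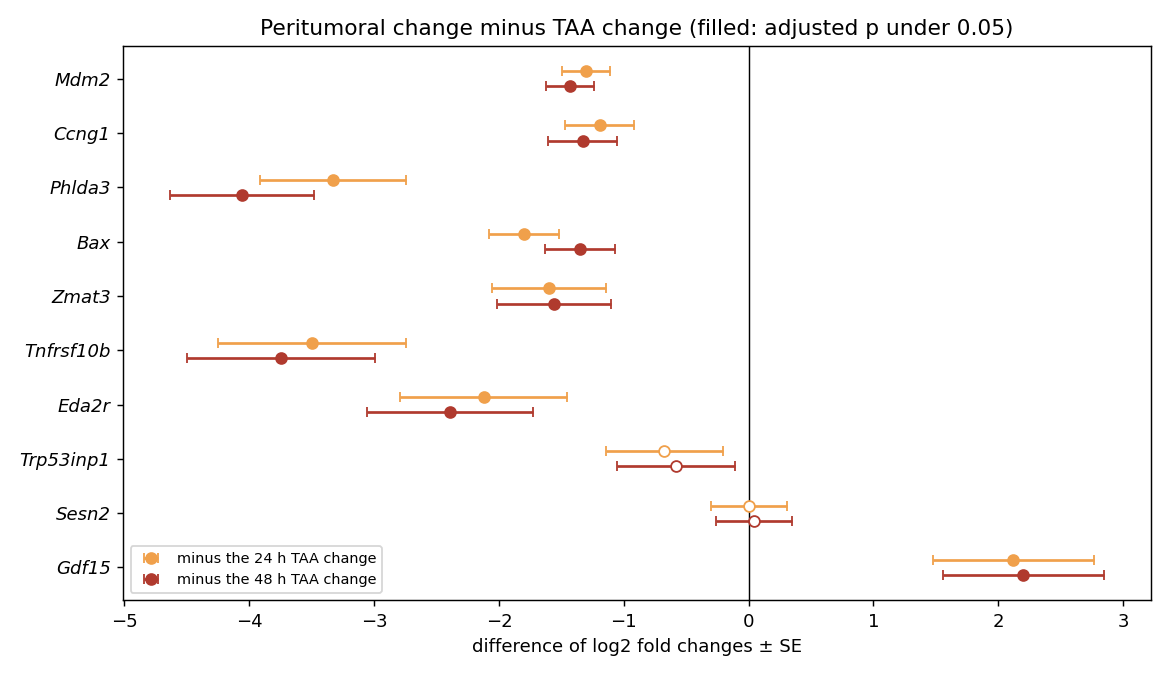
Peritumoral log2 fold change minus the 24 h (orange) or 48 h (red) TAA log2 fold change, ± SE, for each of the 10 genes; filled points have an adjusted p under 0.05. The 7 genes that rose after TAA lie from -1.19 to -4.06, Trp53inp1 and Sesn2 are open, and Gdf15 lies at 2.12 and 2.20.

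Trp53, the gene of p53 itself, stood at 16.9 and 20.3 CPM in controls, 38.0 and 31.3 CPM at 24 h, and 33.9 and 32.7 CPM at 48 h. It rose by 0.90 ± 0.16 (adjusted p = 0.00599) and 0.84 ± 0.16 (adjusted p = 0.00566). In hepatocytes it stood at 26.7, 26.7 and 25.7 CPM in untreated and 26.1, 37.0 and 26.8 CPM in peritumoral libraries and did not pass (0.19 ± 0.18). Mdm4, the relative of Mdm2 that blocks p53 activity, fell by 0.73 ± 0.20 at 24 h (adjusted p = 0.0284), from 42.6 and 59.4 CPM to 27.3 and 34.1 CPM. That call was lost without 24 h replicate 1 or 2 or control replicate 2 (adjusted p = 0.164, 0.05004 and 0.110), with no filter on low counts (0.0540) and in 1 fit of all 12 libraries (0.05675). At 48 h (-0.40 ± 0.20) and in peritumoral hepatocytes (0.06 ± 0.17) Mdm4 did not pass. Cdkn1a, the gene of p21 whose promoter is shown above, rose from 47.2 and 61.5 CPM to 92.9 and 97.9 CPM at 24 h (0.81 ± 0.16, adjusted p = 0.00871) and to 81.3 and 95.3 CPM at 48 h (0.70 ± 0.16, adjusted p = 0.0114). The 48 h call was lost without 48 h replicate 2 (adjusted p = 0.0736) and in 1 fit of all 12 libraries (0.0535). In hepatocytes it stood at 89.2, 58.3 and 99.4 CPM in untreated and at 135.6, 100.2 and 156.5 CPM in peritumoral libraries, with no overlap. Its change of 0.67 ± 0.26 did not pass (adjusted p = 0.0930), but did without peritumoral replicate 2, at 0.88 (adjusted p = 0.0420), and in 1 fit of all 12 libraries, at 0.69 (0.0304). An opposite-strand gene shares 7.68% of its exon length.

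A list of 32 other p53 targets, Cdkn1a among them, went both ways after TAA. At 24 h 9 of 30 tested rose and 8 fell, at a median of 0.17. At 48 h 12 rose and 8 fell, at a median of 0.48. Over all genes tested, 21.3% rose and 20.5% fell at 24 h, and 25.0% and 23.9% at 48 h. In the peritumoral comparison 19.0% rose and 10.2% fell. The counts of this and the following lists are to be read against these shares. Pmaip1 (Noxa), which frees Bax-type proteins by binding Mcl1, rose by 2.81 ± 0.28 at 24 h and 4.13 ± 0.27 at 48 h, and the nuclease gene Aen by 1.499 ± 0.189 at 24 h. Gls2, a liver glutaminase, fell by 1.69 ± 0.19 and 1.52 ± 0.19, and the ferrireductase gene Steap3 by 1.34 ± 0.17 at 24 h. These 2 falls lost their calls in 1 fit of all 12 libraries, at 24 h with adjusted p = 0.126 for Gls2 and 0.0502 for Steap3 and at 48 h with 0.143 for Gls2. At 48 h Gtse1, a mitotic protein that restrains p53, and the polymerase gene Polk rose by 4.90 ± 0.52 and 1.499 ± 0.163. Controls held only 0.412 to 0.601 CPM of Gtse1 and 0.515 to 0.701 CPM of Pmaip1, so the size of their rises is uncertain. In peritumoral hepatocytes 9 of 31 rose and 2 fell, at a median of 0.31. The kinase gene Plk2 rose by 1.49 ± 0.20, the autophagy gene Dram1 by 2.87 ± 0.50 and the antiproliferative gene Btg2 by 1.38 ± 0.24, while Tigar, a fructose bisphosphatase, fell by 1.00 ± 0.17. Without untreated replicate 1 or 2 only 4 of these rose in the peritumoral comparison. No gene fell there without untreated replicate 1, where Tigar lost its call (adjusted p = 0.0633), and 1 fell without untreated replicate 2 or any 1 of the 3 peritumoral libraries. At 24 h, 3 and 4 fell without 24 h replicate 1 and 2, and at 48 h, 5 without 48 h replicate 1.

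Of 16 p53 regulators, 13 were tested. The checkpoint kinase gene Chek1 rose by 3.73 ± 0.55 at 24 h and 4.65 ± 0.54 at 48 h, and Chek2 by 2.47 ± 0.35 at 48 h. Chek1 stood at only 0.200 to 0.412 CPM in controls, so the size of its rise is uncertain. With Trp53, 2 regulators rose and 3 fell at 24 h, and 3 rose and 3 fell at 48 h. The ubiquitin ligase gene Rfwd2 (-0.52 ± 0.12) and the phosphatase gene Ppm1d (-1.23 ± 0.33) fell at 24 h and the ligase gene Rchy1 (-0.59 ± 0.13) at 48 h. In peritumoral hepatocytes Ppm1d alone passed, upwards, at 0.70 ± 0.21. Leaving out any 1 of the 4 libraries ended the 24 h call of Ppm1d (adjusted p = 0.0583 to 0.121), and Rfwd2 lost its own in 1 fit of all 12 libraries (0.0858). Without 24 h replicate 1 or 2 or control replicate 2 no regulator fell at 24 h, and without 48 h replicate 1 or 2, 1 fell at 48 h. Ppm1d lost its call with each of the 6 hepatocyte libraries left out (adjusted p = 0.06985 to 0.1575), and no regulator rose then except without peritumoral replicate 3. Its peritumoral call was also lost with no filter on low counts (0.0725) and with edgeR's legacy quasi-dispersion (0.0542).

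Of 10 tested paralogs of the members, 1 rose and 4 fell at each TAA time, at medians of -0.72 and -0.61. Phlda2, a relative of Phlda3, rose by 4.66 ± 0.97 and 4.30 ± 1.00, while Trp53inp2, the relative of Trp53inp1, fell by 1.11 ± 0.15 and 0.82 ± 0.15. Phlda2 stood at only 0 to 0.103 CPM in controls, so the size of its rise is uncertain. Sesn1, a sestrin, fell by 0.71 ± 0.19 at 24 h, and Zmat1 (-1.04 ± 0.24) and Ccng2, the relative of Ccng1 (-1.21 ± 0.30), fell at 48 h. In peritumoral hepatocytes Sesn1 rose by 1.06 ± 0.26 and Trp53inp2 fell by 1.05 ± 0.27. Both calls were lost without peritumoral replicate 3 (adjusted p = 0.05003 for Sesn1 and 0.0710 for Trp53inp2), untreated replicate 1 (0.0883 and 0.108) or untreated replicate 2 (0.0994 and 0.0653), and that of Trp53inp2 also without untreated replicate 3 (0.0661). The latter leave-out gave 2 rises, and leaving out peritumoral replicate 1 gave 2 falls. Falls numbered 1, 2 and 2 at 24 h without 24 h replicates 1 and 2 and control replicate 2, and 1 and 2 at 48 h without 48 h replicates 1 and 2, and the rise of Phlda2 at 48 h was lost without control replicate 2 (adjusted p = 0.0605). In 1 fit of all 12 libraries the falls of Sesn1 at 24 h (0.120) and Trp53inp2 at 48 h (0.0657) and the rise of Phlda2 at 48 h (0.0587) did not pass.

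In the BCL2 family, to which Bax belongs, 7 of 12 tested genes rose and 1 fell at 24 h, and 7 rose and 2 fell at 48 h. Bak1, which opens mitochondrial pores as Bax does, rose by 1.11 ± 0.18 and 1.66 ± 0.18, the BH3-only gene Bcl2l11 (Bim) by 1.68 ± 0.20 at 24 h, and the survival genes Mcl1 at 24 h and Bcl2l1 at 48 h by 0.83 ± 0.12 and 0.87 ± 0.13. Bok rose by 2.14 ± 0.23 at 48 h. The BH3-only gene Bmf fell by 3.14 ± 0.31 and 2.85 ± 0.31. Opposite-strand genes share 25.5% of the exon length of Bak1. In peritumoral hepatocytes 4 passed, all upwards: Bcl2 (2.74 ± 0.39), Bok (0.81 ± 0.19), Mcl1 (0.98 ± 0.24) and Bcl2a1b (2.98 ± 0.82, with 49.1% of its exon length shared with another gene). Bcl2a1b stood at only 0 to 0.577 CPM in untreated libraries, so the size of its rise is uncertain. At most 3 passed with any library left out, 1 without untreated replicate 1 or 2 and 2 without peritumoral replicate 3. Bcl2 kept its call in all 6 leave-outs. Mcl1 lost its call in 5 of 6, all but that of peritumoral replicate 1 (adjusted p = 0.0512 to 0.0990), Bcl2a1b without peritumoral replicate 3 or any untreated library (0.0503 to 0.112) and Bok without peritumoral replicate 1 or untreated replicate 1 or 2 (0.0549 to 0.0959). Without untreated replicate 3, 1 family gene fell.

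Among 7 tested receptor and ligand partners of Tnfrsf10b, Eda2r and Gdf15, the decoy TRAIL receptor genes Tnfrsf23 and Tnfrsf22 rose with Tnfrsf10b. Tnfrsf23 stood at 1.13 and 0.701 CPM in controls, 9.32 and 9.35 CPM at 24 h, and 36.1 and 45.4 CPM at 48 h. It rose by 3.34 ± 0.26 and 5.46 ± 0.27, and Tnfrsf22 by 1.95 ± 0.49 and 3.50 ± 0.48. Casp8, the caspase that death receptors activate, rose by 0.80 ± 0.17 at 48 h, and its inhibitor gene Cflar fell by 0.52 ± 0.16. Eda, the ligand gene of Eda2r, fell by 1.87 ± 0.38 at 24 h. Tnfsf10, the gene of TRAIL, rose in peritumoral hepatocytes (1.59 ± 0.36). The 24 h calls of Tnfrsf22 and Eda were lost without 24 h replicate 2 (adjusted p = 0.0963 and 0.0557), that of Tnfrsf22 also without control replicate 2 (0.0797) and that of Eda without 24 h replicate 1 (0.0508). Without control replicate 1 or 2, 2 partners fell at 24 h. Cflar lost its call in 1 fit of all 12 libraries (0.147) and without 48 h replicate 1 or 2 or control replicate 2 (adjusted p = 0.147, 0.116 and 0.0853), and Tnfsf10 without untreated replicate 1 or 2 (0.0828 and 0.0762).

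The integrated stress response, which also raises Gdf15 and Sesn2 in other settings, was read from 14 genes. At 24 h 4 rose and 2 fell and at 48 h 6 rose and 3 fell. The serine synthesis gene Psat1 rose by 3.85 ± 0.42 and 4.22 ± 0.42, Ppp1r15a, a feedback phosphatase subunit, by 1.47 ± 0.16 and 1.17 ± 0.16, Ddit3 (Chop) by 1.80 ± 0.43 at 24 h and Mthfd2 by 3.07 ± 0.56 at 48 h, while Atf5 fell by 0.56 ± 0.13 and 0.70 ± 0.13. In the peritumoral comparison, where Gdf15 was higher, 3 rose and 1 fell: Ppp1r15a by 1.94 ± 0.27, Atf3 by 1.43 ± 0.32 and Ddit4 by 2.55 ± 0.60, and the asparagine synthetase gene Asns fell by 3.19 ± 0.67. The other 10 of the 14 genes did not pass, and the median of the list was 0.045. Without untreated replicate 1 or 2 only Ppp1r15a rose there, and Asns lost its call when peritumoral replicate 3 (adjusted p = 0.0506) or either of the untreated replicates 1 and 2 (0.0582 and 0.0561) was left out. Rises numbered 2 at 24 h without 24 h replicate 1, falls 1 and 0 without 24 h replicates 1 and 2, and falls 1 at 48 h without 48 h replicate 1 or control replicate 2. Atf5 lost its call in 1 fit of all 12 libraries at 24 h and at 48 h (adjusted p = 0.420 and 0.242).

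Of 12 mitotic genes that p21 represses through the DREAM complex, all 12 rose in peritumoral hepatocytes (median 3.70) and at 48 h (median 5.98), and 6 of 12 at 24 h (median 1.81). The forkhead factor gene Foxm1 rose by 3.47 ± 0.32 in peritumoral hepatocytes and by 2.15 ± 0.42 and 5.997 ± 0.391 after TAA, and the mitotic cyclin gene Ccnb2 by 4.67 ± 0.46 in peritumoral hepatocytes and 4.46 ± 0.38 at 48 h. Control livers held only 0.412 to 0.501 CPM of Foxm1 and untreated hepatocytes 0.173 to 0.697 CPM of Ccnb2, so these sizes are uncertain. Top2a, Cdk1 and Ccna2 rose at 24 h by 2.89 ± 0.62, 2.24 ± 0.53 and 2.11 ± 0.56. The 24 h count was 1 without 24 h replicate 1 and 2 without control replicate 2, and Cdk1 lost its 24 h call in 1 fit of all 12 libraries (adjusted p = 0.0680). All 12 were also higher at 48 h than at 24 h, but 0 without either 24 h library and 2 without 48 h replicate 1.

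Over these lists, the rule for named genes gave 20 genes in the peritumoral comparison, 27 at 24 h and 28 at 48 h, and 8, 15 and 23 of them kept their calls with every library left out. In the peritumoral comparison 11 lost theirs without untreated replicate 2 (adjusted p = 0.0533 to 0.158) and 11 without untreated replicate 1 (0.0541 to 0.157). At 24 h, 10 lost theirs without 24 h replicate 1 (0.0508 to 0.164), 8 without 24 h replicate 2 (0.05004 to 0.0987), 7 without control replicate 2 (0.0515 to 0.110) and 4 without control replicate 1 (0.0519 to 0.0639). At 48 h, 3 lost theirs without 48 h replicate 1 (0.0516 to 0.147), without 48 h replicate 2 (0.0827 to 0.116) or without control replicate 2 (0.0605 to 0.0853).

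**Figure D4:**
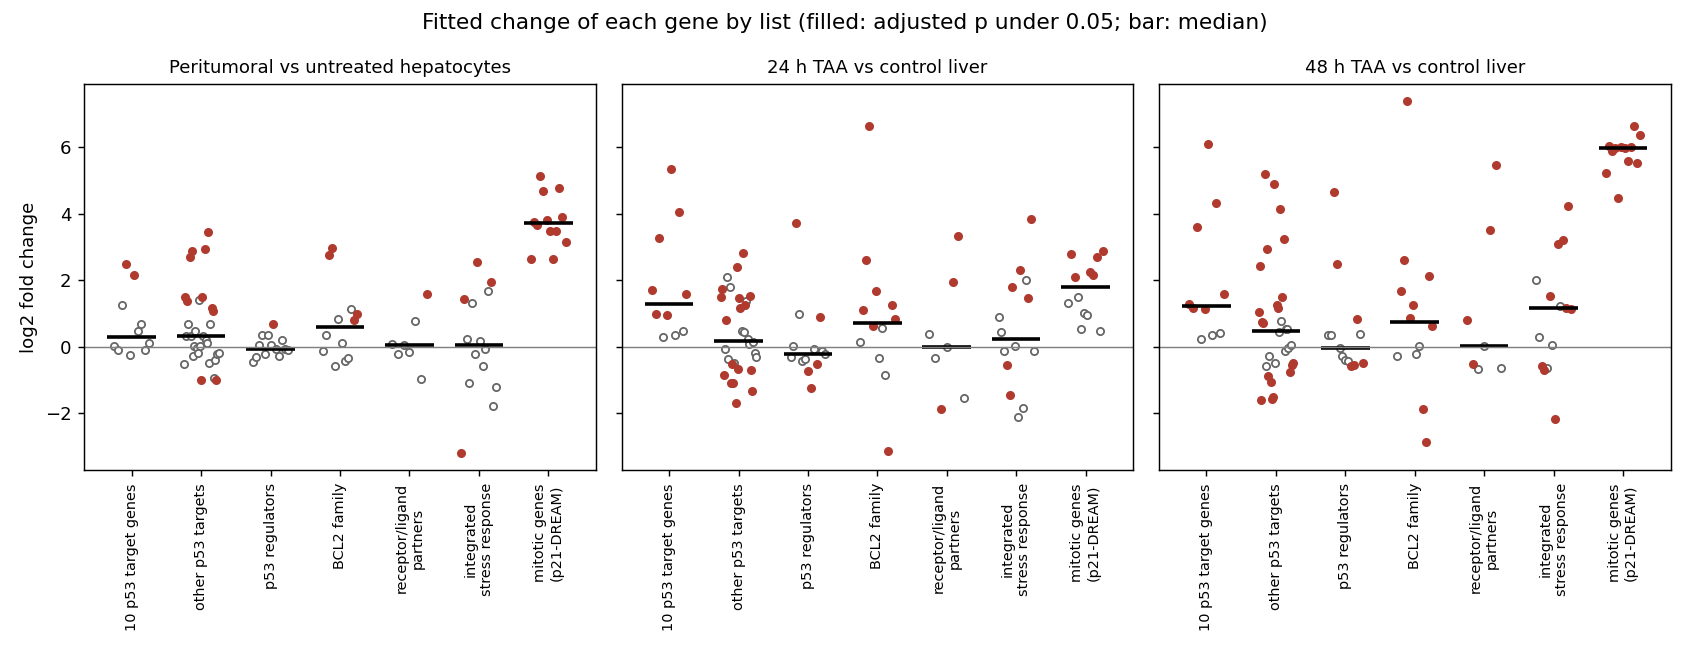
Log2 fold change of each tested gene (points) by list in 3 comparisons, with the list median (bar); filled points have an adjusted p under 0.05. The 10 p53 target genes have medians of 0.29, 1.28 and 1.22 from left to right, while the mitotic genes have medians of 3.70, 1.81 and 5.98.

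Markers of other cell types moved with these changes, and their part in the results was not tested. The 10 macrophage markers summed to 63.3 to 141.5 RPM in control livers, 388 to 518 RPM at 24 h and 963 to 1538 RPM at 48 h, and to 236 to 412 RPM in untreated and 1551 to 4301 RPM in peritumoral hepatocytes. The 9 stellate and matrix markers summed to 81.5 to 131 RPM, 451 to 497 RPM and 1527 to 2167 RPM in the livers, and to 47.6 to 117 RPM and 706 to 2458 RPM in the hepatocytes. The 8 endothelial markers summed to 126 to 151 RPM, 300 to 409 RPM and 360 to 485 RPM, and to 149.7 to 257 RPM and 858 to 1384 RPM. The 8 biliary markers summed to 59.1 to 64.2 RPM, 147 to 164 RPM and 208 to 309 RPM in the livers, and to 50.6 to 73.6 RPM in untreated hepatocytes. The 10 hepatocyte markers fell in sum from between 184700 and 188000 RPM in controls to between 147200 and 158100 RPM at 24 h and between 131900 and 138600 RPM at 48 h. The 7 neutrophil markers summed to at most 0.390 RPM in controls, with 6 of 7 at 0 in each, to 5.92 to 10.1 RPM in TAA livers, to 3.27 to 6.23 RPM in untreated and to 22.5 to 47.3 RPM in peritumoral hepatocytes. The 7 lymphocyte markers reached at most 2.66 RPM in livers and 7.0 RPM in peritumoral hepatocytes, and the 5 red blood cell markers ran from 9.65 to 28.3 RPM in livers and from 10.9 to 143.9 RPM in hepatocytes.

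Ordered by mean CPM over the 5 groups, control liver had the lowest level of 9 of the 10 genes, all but Gdf15, which was lowest in untreated hepatocytes. The hepatocyte and liver libraries differ in mouse stock and were scaled apart, so this order is a description. No share over all genes is given for it or for the overlaps below. These counts are therefore not read as particular to the 10 genes. For Mdm2, Bax, Phlda3, Trp53inp1, Eda2r, Zmat3 and Tnfrsf10b the control libraries did not overlap those of the next group, and for Ccng1 and Sesn2 they did. At the top, Gdf15 in peritumoral hepatocytes did not overlap its next group, nor did Phlda3 or Eda2r at 48 h, while the top group overlapped the next for the other 7. With common scaling of all 12 libraries the order changed for Bax and Trp53inp1, which remained lowest in control liver. Per kilobase of exon, Gdf15 had the highest mean level of the 10 genes in peritumoral hepatocytes (126 ± 75.0 CPM per kb, SD, n = 3), in control liver (26.5 ± 5.85, n = 2), at 24 h (32.3 ± 2.86, n = 2) and at 48 h (31.4 ± 3.94, n = 2). In untreated hepatocytes Trp53inp1 did, at 25.6 ± 11.2 CPM per kb against 22.4 ± 7.91 for Gdf15, less than the spread between libraries. Eda2r was lowest in all 5 groups, from 0.0605 ± 0.0134 CPM per kb in control liver to 0.744 ± 0.00389 at 48 h. Phlda3 went from the eighth place in control liver (0.0973 ± 0.0441 CPM per kb) to the sixth at 48 h (7.18 ± 2.78).

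Each library was also set on a scale of log2(CPM + 0.5) centred on the untreated hepatocytes or the control livers. On it the mean over the 10 genes ran from -0.09 to 0.05 in untreated hepatocytes, and it was 0.49, 0.78 and 0.49 in peritumoral replicates 1 to 3, 1.49 and 1.52 at 24 h, and 1.75 and 1.45 at 48 h. Zmat3 and Bax lay closest to the mean of the other 9 genes over the 12 libraries (mean absolute difference 0.33 for each, log2), and Phlda3 (1.19) and Gdf15 (1.12) farthest. Among 11995 genes ranked by the same measure against the mean of the 10, the closest were Mapkapk3 (0.17), Plekhg2 (0.17), Arl8a (0.20), Tmem206 (0.20) and Cdc14a (0.20). All 5 rose at both TAA times, from 1.14 ± 0.15 for Arl8a at 48 h to 2.18 ± 0.41 for Cdc14a at 48 h. In peritumoral hepatocytes Plekhg2 rose by 0.94 ± 0.20 and Cdc14a by 1.28 ± 0.35, and the other 3 did not pass. These genes were chosen for this pattern, so their values are a description.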

How the data were processed

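The authors deposited raw counts per gene for 12 libraries (TruSeq Stranded mRNA kit, per the labels' protocols), and these counts were the input of every test. A deposited table of RPM values was not used. The submitters' processing notes name STAR, DESeq2, mm10 and GRCm38 without versions or roles, and the sources used here give neither the annotation nor the strand setting of the counting. Groups and their replicate numbers came from sample titles.

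In R 4.3.3, edgeR 4.0.16 was run with TMM factors, its filterByExpr filter (minimum count 10, minimum total 15) and its two-sided quasi-likelihood F test, and p-values were adjusted after Benjamini and Hochberg and called under 0.05. It was fitted to the 6 hepatocyte libraries (13442 genes), the 6 liver libraries (13497 genes) and, for differences of changes, all 12 (14615 genes). CPM is scaled by the TMM factors of the hepatocyte or liver fit, and RPM by library totals only. The deeper hepatocyte libraries varied more (biological coefficient of variation 0.358) than the livers (0.188). Control counts of 9 or fewer got exact Poisson ratio intervals. Replicate libraries differed by more than sampling noise. The tests were run on simulated data with known changes first. GENCODE M21 matched 40254 of the IDs, with 2 symbols, Adgre1 and Tigar, found under older names (Emr1, 9630033F20Rik).

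Alternatives were RLE factors, DESeq2 1.42.0, no count filter, a minimum count of 50, 1 fit of all 12 libraries, the replicate number as a block and each library left out, and, added after seeing the data, edgeR's legacy quasi-dispersion. Leaving out a liver library leaves 1 library in a group, which is then assumed to vary like the others. Named genes are the 10 members, Trp53, Mdm4 and Cdkn1a, up to 4 called genes of each list with the smallest p per comparison, and the 5 genes nearest the members' mean. The list genes named by that rule are given for the 3 comparisons with an untreated or control group. The members and lists were chosen with earlier results of these data known.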

Additional observations from a re-analysis of the deposited data

How the results depend on the processing

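Under the settings that kept all libraries, the 7 rises of p53 target genes at each TAA time and those of Phlda3 and Gdf15 in peritumoral hepatocytes kept their direction and their call. Eda2r passed in the peritumoral comparison in 1 fit of all 12 libraries (1.28, adjusted p = 0.0179). That fit, which moved the median change of all genes at 24 h from 0.02 to 0.15, called 5941 genes in the peritumoral comparison instead of 3930, 3255 at 24 h instead of 5644 (2030 higher and 1225 lower, against 2877 and 2767), with 2701 higher and 1698 lower at 48 h against 3372 and 3226, and 131 between the times instead of 989. A minimum count of 50 gave 2594 in the peritumoral comparison, and between the times DESeq2 gave 1545 and no filter 654. With no filter, 0 of the 10 genes passed as changing more in peritumoral hepatocytes than at 24 h or 48 h. Gdf15 still differed by 2.14 and 2.22 but did not pass (adjusted p = 0.0531 and 0.0583). Eda2r lost its difference from 24 h under all 6 such settings (0.0511 to 0.0869). Zmat3 lost its difference from 48 h under some of them. Only values near 0 changed sign: Bax in the peritumoral comparison with no filter (-0.001), Sesn2 and Zmat3 between the times with RLE factors (0.026 and 0.026), DESeq2 (0.025 and 0.026) or a minimum count of 50 (0.019 and 0.019), Zmat3 there with the block (0.002), and the Sesn2 difference from 24 h with the block (-0.001). The causes were not tested.

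With each library left out in turn, 1359 to 3827 genes were called in the peritumoral comparison, 2821 to 4596 at 24 h, 4551 to 6016 at 48 h, 0 to 256 between the times, 551 to 4227 for the difference from 24 h and 293 to 3620 for that from 48 h. Of the 10 genes, 1 to 2 were higher in the peritumoral comparison, 5 to 7 at 24 h and 7 to 8 at 48 h. In the differences 0 to 1 were higher and 2 to 7 lower. Values that changed sign in some leave-out ranged as follows, none of them a call. In the peritumoral comparison Bax ran from -0.134 to 0.116, Mdm4 from -0.055 to 0.137, Trp53inp1 from -0.398 to 0.295 and Zmat3 from -0.053 to 0.271. Gdf15 at 48 h ran from -0.011 to 0.445. Between the times Ccng1 ran from -0.14 to 0.427, Gdf15 from -0.178 to 0.08, Mdm2 from -0.042 to 0.345, Sesn2 from -0.127 to 0.101, Trp53 from -0.224 to 0.087, Trp53inp1 from -0.341 to 0.181 and Zmat3 from -0.408 to 0.313. In the differences from 24 h and 48 h Cdkn1a ran from -0.413 to 0.002 and from -0.268 to 0.133, and Sesn2 from -0.164 to 0.238 and from -0.118 to 0.274.

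Whether the replicate numbers pair the libraries is not settled here. Deviations of same-numbered hepatocyte libraries correlated at -0.223, 0.165 and 0.105 across genes, and those of different-numbered ones at -0.244 to 0.238. Same-numbered livers gave 0.0227 to 0.0266. With 2 libraries a group, liver deviations mirror each other, so these values cannot decide the question. With the number as a block, 5357 genes were called at 24 h, 6352 at 48 h and 886 between the times. In the peritumoral comparison the block gave 2946. It ended both Eda2r differences (adjusted p = 0.0672 and 0.0545) and the peritumoral rises of Bcl2a1b (0.0838), Bok (0.0589) and Ppm1d (0.112), and Cdkn1a passed there (0.0403).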
